A study of Homo sapiens with 18 samples.

Results

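The comparison set 3 arrays of MCF10A cells that had received YAP/TAZ and ESR1 cDNAs together against 3 arrays of MCF10A cells that had received ESR1 cDNA without YAP/TAZ cDNA, out of 18 arrays in the series. Arrays were chosen by their titles alone, so no measured value entered the choice, and no array with control cDNA enters the difference. MCF10A is a non-tumorigenic human line of mammary epithelium. Cells of both groups carried a non-targeting hairpin (shNT) delivered by lentivirus at a multiplicity of infection of 5, had been selected with puromycin at 1.5 µg/ml for 4 days and had recovered for at least 7 days. Vectors carrying cDNA were then introduced transiently with Lipofectamine2000, and RNA was taken after 5 days in M5, a medium that contains estrogen. Neither the amount of vector nor the form of YAP and TAZ it encodes is given in the sources used here, and transient transfection leaves an unstated share of cells without the cDNA. Another 2 groups of 3 arrays each served for a comparison of differences: shNT cells with YAP/TAZ cDNA, and shNT cells with control cDNA. Control cDNA also went to 2 knockdown groups, shLATS1B (LATS1 targeted) and shLATS1+2 (LATS1 and LATS2 targeted, per the label). The second enters none of the differences. It enters the spread estimated from all 18 arrays, the choice of probe sets, the dim level, the first component and the levels by group.

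YAP (encoded by YAP1) and TAZ (encoded by WWTR1) are transcriptional coactivators that enter the nucleus and bind DNA through TEAD transcription factors. In the Hippo pathway the kinases MST1 and MST2 activate LATS1 and LATS2, which phosphorylate YAP and TAZ and keep them out of the nucleus or mark them for degradation. ESR1 encodes estrogen receptor alpha, the nuclear receptor that marks hormone-responsive luminal cells of the mammary gland and is low or absent in basal-like lines such as MCF10A. The comparison asks what YAP/TAZ cDNA adds in cells that receive ESR1 cDNA as well.

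All values are the submitters' log2 intensities of Affymetrix whole-transcript arrays, 1 probe set per gene over 18404 genes, and each difference is the mean with both cDNAs minus the mean with ESR1 cDNA. Standard errors (SE) and p-values come from a limma model of all 18 arrays, two-sided, with Benjamini-Hochberg adjustment over every gene, and calls were made where the adjusted p was under 0.05. The labels do not say whether the arrays of each group stem from separate cultures. The p-values hence measure the spread between arrays of a group, pooled over all 6 groups, which may be technical. Fitted alone, the 6 arrays compared gave 3273 calls in place of 5359. On this scale the median gene stood at 6.40, and 30% of genes had a mean under 5.21, which is called the dim level below. The number of arrays limits the precision.

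The first array of each group stood apart from its partners and toward the other group. On the first principal component of the 6 arrays, which held 76.8% of their variance, the arrays with both cDNAs scored 13.95, 24.20 and 24.26 and the arrays with ESR1 cDNA scored -7.93, -26.71 and -27.77. Array 1 of the ESR1 group lay a median of 27.3% of the way (quartiles 8.62% and 54.1%) from its partners toward the arrays with both cDNAs, over 400 genes that were called and at least 2-fold apart without it. The same measure gave -4.81% for array 2 and -3.36% for array 3 of that group, and 12.7% toward the ESR1 group for array 1 with both cDNAs. On the first component of all 18 arrays (47.3% of the variance) the groups lay on opposite sides, between 17.78 and 22.70 with both cDNAs and between -18.16 and -10.30 with ESR1 cDNA. Arrays with YAP/TAZ cDNA or control cDNA lay on the side of the ESR1 arrays, and those of both knockdown groups on the side of the arrays with both cDNAs. The labels name no batch, so a batch that followed this division cannot be told apart from the treatments.

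**Figure D1:**
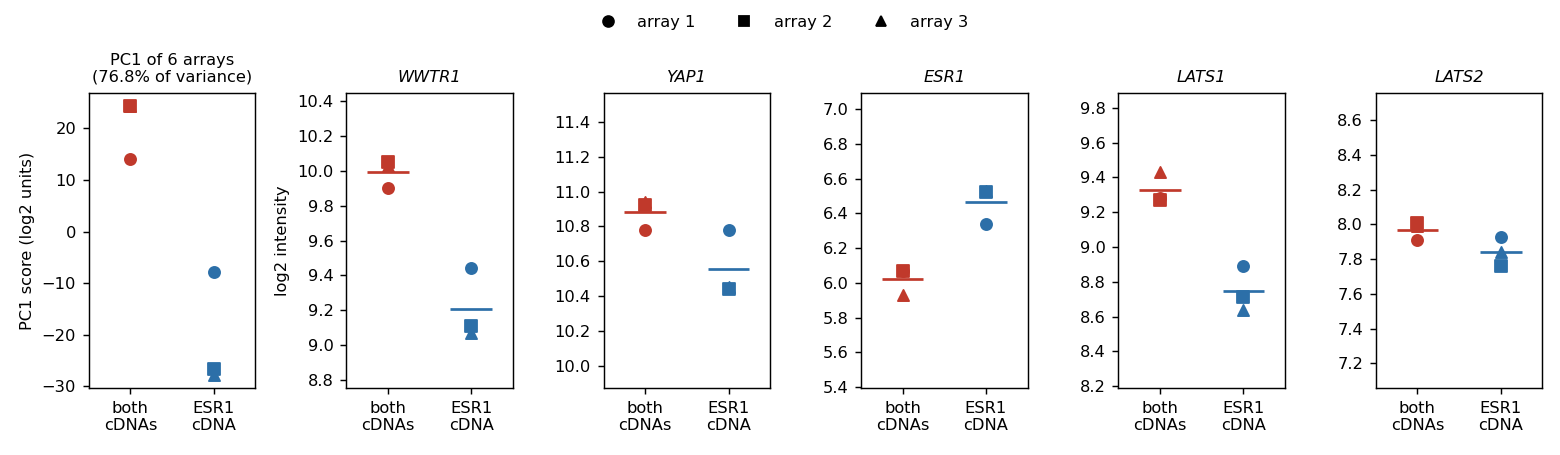
First principal component of the 6 arrays (left) and log2 intensity of the transfected or targeted genes (other panels, equal vertical span), with both cDNAs on the left and ESR1 cDNA on the right of each panel. Symbols are arrays 1 to 3 and horizontal lines are group means; WWTR1 separated the groups, while for YAP1 the first ESR1 array, at 10.78, lay with the arrays that received both cDNAs.

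WWTR1, YAP1 and ESR1, the genes whose cDNAs were delivered, were read first. WWTR1 had 9.90, 10.05 and 10.03 with both cDNAs, against 9.44, 9.11 and 9.07 with ESR1 cDNA, a difference of 0.79 ± 0.09 (SE; 1.72-fold, adjusted p = 5.4e-06). Every array with both cDNAs lay above every ESR1 array. YAP1 had 10.78, 10.92 and 10.94 with both cDNAs, against 10.78, 10.44 and 10.45 with ESR1 cDNA, and its difference of 0.32 ± 0.07 was called (adjusted p = 0.0037) although the groups overlapped. A fit of these 6 arrays alone did not call YAP1. In the arrays that received YAP/TAZ cDNA without ESR1 cDNA neither gene was above the control arrays: WWTR1 averaged 9.44 ± 0.05 against 9.57 ± 0.16, and YAP1 averaged 10.79 ± 0.03 against 10.84 ± 0.03 (SD, n = 3 each). The shLATS1B arrays, which received no YAP/TAZ cDNA, averaged 10.01 for WWTR1 and 10.91 for YAP1, about the levels with both cDNAs. These probe sets therefore do not separate arrays labelled YAP/TAZ cDNA from arrays without it, and where they lie relative to the cDNA in the vector was not analysed here.

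ESR1 had 6.07, 6.07 and 5.93 with both cDNAs, against 6.34, 6.52 and 6.53 with ESR1 cDNA, so it fell by 0.44 on the log2 scale (SE 0.08, adjusted p = 0.00059) with no overlap. Control arrays averaged 5.53 ± 0.14, below both, but the knockdown groups, which received no ESR1 cDNA, averaged 6.37 ± 0.11 in shLATS1B and 6.40 ± 0.055 in shLATS1+2 (SD, n = 3 each). Over all groups the ESR1 probe set, the brighter of 2, thus does not separate arrays labelled ESR1 cDNA from arrays without it. Among the shNT groups alone the means did follow the label, with 5.73 ± 0.12 (SD, n = 3) in arrays with YAP/TAZ cDNA. LATS1 had 9.28, 9.27 and 9.43 with both cDNAs, against 8.89, 8.71 and 8.64 with ESR1 cDNA, a rise of 0.58 ± 0.08 (adjusted p = 3.6e-05). Its mean was 7.66 ± 0.13 in the LATS1 knockdown and 8.86 ± 0.09 in control arrays (SD, n = 3 each), so LATS1 was not reduced in the arrays with both cDNAs. LATS2, itself a YAP/TAZ target as well as the partner kinase, had 7.91, 8.01 and 7.99 with both cDNAs and 7.93, 7.76 and 7.84 with ESR1 cDNA, and was not called (difference 0.13 ± 0.06, adjusted p = 0.15).

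The cells read as mammary epithelium in both groups. KRT5, a basal keratin, ranged from 12.24 to 12.38 with both cDNAs and from 12.51 to 12.76 with ESR1 cDNA. CDH1, the epithelial cadherin, ranged from 10.62 to 10.79 with both cDNAs and from 10.57 to 10.90 with ESR1 cDNA. PTPRC, the pan-leukocyte marker, lay between 4.37 and 4.47 in all 6 arrays, under the dim level. Not every gene of the leukocyte list was dim: over the 6 arrays CD14 ranged from 9.26 to 11.14 and CD68 from 9.53 to 10.66.

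Adding YAP/TAZ cDNA to ESR1 cDNA went with a wide but mostly shallow change in transcript levels. Of 18404 genes, 5359 were called (29.1%), of which 2977 were higher (16.2% of all genes) and 2382 lower (12.9%) with both cDNAs. The shares of 16.2% and 12.9% are the background for the list counts below. With each array centred on its median the calls were 3627 higher and 1726 lower, so the balance of directions depends on scaling. The difference was under 1.5-fold for 4234 of the called genes (79.0%), with a median size of 0.37 on the log2 scale. At 2-fold or more there were 144 higher and 118 lower, at 4-fold or more 15 and 13, and at 8-fold or more 4 and 5. The 3 arrays of the groups did not overlap for 4606 of the called genes, and for 6080 of all genes (33.0%). Without array 1 of the ESR1 group 6798 genes were called, among them 5063 of the 5359, all in the same direction. Without array 1 of both groups 7170 were called, among them 4904 of the 5359.

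SLC6A14, a broad amino acid transporter driven by sodium and chloride, rose furthest. It had 9.44, 9.65 and 9.60 with both cDNAs, against 5.39, 5.16 and 5.33 with ESR1 cDNA, which is 19.3-fold (log2 4.27 ± 0.11, adjusted p = 5.2e-14). CYP24A1, the hydroxylase that inactivates vitamin D, had 9.04, 9.17 and 9.17 with both cDNAs, against 4.89, 5.00 and 4.90 with ESR1 cDNA, which is 18.3-fold (log2 4.20 ± 0.10). Its ESR1 values lay under the dim level of 5.21, so the fold and every difference made from it are ratios of intensities in which the lower level is not well measured. AQP3, a channel for water and glycerol, had 10.14, 10.24 and 10.28 with both cDNAs, against 6.90, 7.04 and 7.15 with ESR1 cDNA, or 9.13-fold. SLC6A14 with ESR1 cDNA also lay near the dim level, and its array 2, at 5.16, was under it. The same limit thus applies to its fold and differences. For all 3 genes the groups were separated by far more than the spread inside either.

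GPX2, a selenium-dependent glutathione peroxidase, had 8.41, 8.67 and 8.65 with both cDNAs, against 5.70, 5.16 and 5.58 with ESR1 cDNA, or 8.53-fold. Array 2 of the ESR1 group, at 5.16, lay under the dim level, so the lower level of GPX2 is not well measured either. AKR1B10, a reductase of aldehydes and ketones, had 8.42, 8.33 and 8.33 with both cDNAs, against 5.42, 5.33 and 5.38 with ESR1 cDNA, or 7.91-fold. The next rises were FBXO32, a substrate adaptor of a ubiquitin ligase (6.31-fold), KRT15, a keratin of basal and progenitor epithelium (5.83-fold), and OLR1, a receptor for oxidised low-density lipoprotein (4.91-fold). They were followed by DMBT1, a secreted scavenger receptor protein (4.84-fold), CYP26B1, which degrades retinoic acid (4.78-fold), SMOC1, a matricellular protein (4.49-fold), and IFIT2, an interferon-induced protein (4.45-fold). Adjusted p-values of these 12 rises ran up to 5.0e-09.

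SCNN1G, the gamma subunit of the epithelial sodium channel, fell furthest. It had 5.26, 5.27 and 5.33 with both cDNAs, against 9.35, 8.91 and 9.32 with ESR1 cDNA, 15.0-fold lower (log2 -3.91 ± 0.10, adjusted p = 3.5e-14). ID2, which binds and blocks basic helix-loop-helix transcription factors and is a standard BMP target, had 5.39, 5.60 and 5.16 with both cDNAs, against 8.75, 9.06 and 9.63 with ESR1 cDNA, 13.6-fold lower. RGS2, which switches off signalling through G protein alpha subunits, had 6.72, 6.81 and 6.76 with both cDNAs, against 9.69, 10.37 and 10.52 with ESR1 cDNA, 10.8-fold lower. In RGS2 and ID2 the ESR1 arrays were spread widely, with array 1 the lowest, yet every one lay far above the arrays with both cDNAs.

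CCL20, the chemokine that binds CCR6, had 6.21, 5.56 and 6.03 with both cDNAs, against 8.73, 9.31 and 9.40 with ESR1 cDNA, 9.27-fold lower. SLC26A2, a sulfate transporter, had 7.36, 7.23 and 7.54 with both cDNAs, against 10.69, 10.55 and 10.47 with ESR1 cDNA, 9.17-fold lower. ANGPTL4, a secreted inhibitor of lipoprotein lipase, was 6.49-fold lower. The other falls were PNLIPRP3, a relative of pancreatic lipase (5.88-fold), VARS2, the mitochondrial valyl-tRNA synthetase (4.68-fold), FN1, fibronectin (4.61-fold), CCBE1, a secreted factor of lymphatic vessel growth (4.47-fold), FLRT3, a leucine-rich adhesion protein (4.40-fold), and UCA1, a long noncoding RNA (4.24-fold). VARS2 had the widest error of the 24, with a log2 difference of -2.23 ± 0.30 (adjusted p = 3.3e-05).

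**Figure D2:**
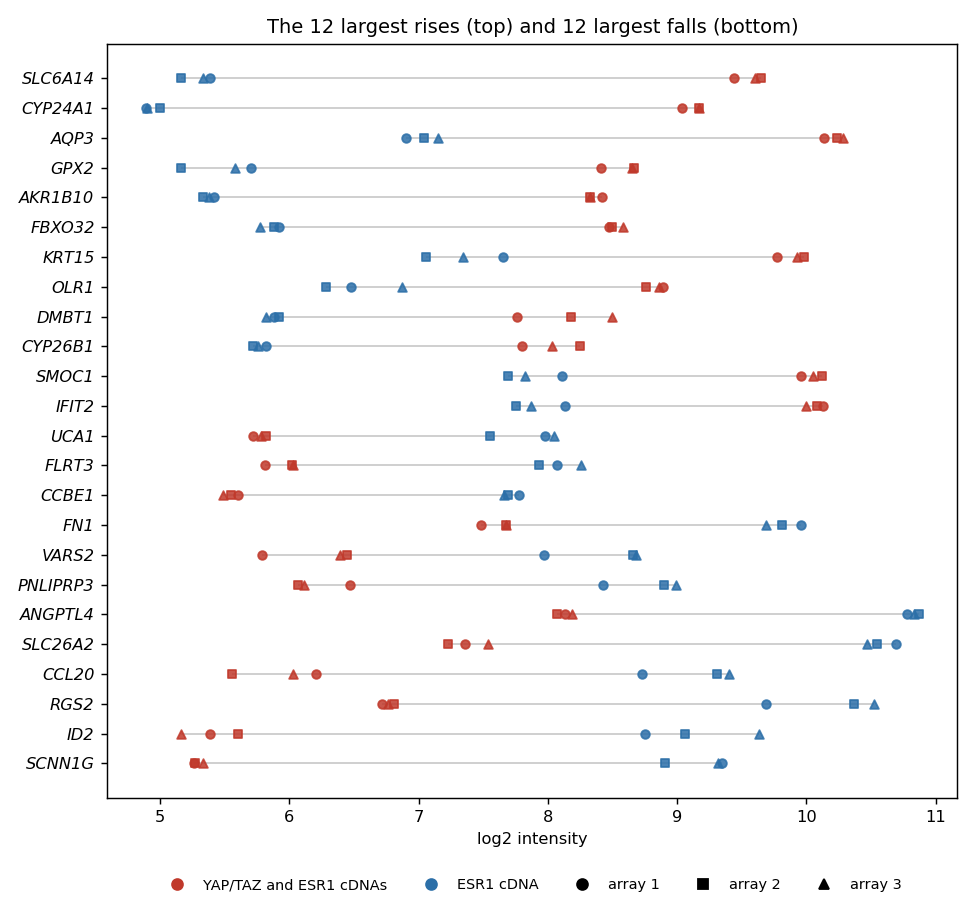
Log2 intensity in each of the 6 arrays for the 12 largest rises and 12 largest falls, with arrays that received YAP/TAZ and ESR1 cDNAs in red and arrays with ESR1 cDNA in blue, and a symbol for each array number. The arrays of the groups do not overlap in any of the 24 genes, from SLC6A14 at 19.3-fold higher to SCNN1G at 15.0-fold lower.

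Among 22 measured Hippo components 7 were higher (31.8%) and 3 lower (13.6%, near the 12.9% of all genes). Besides WWTR1, LATS1 and YAP1, the rises included PTPN14, a phosphatase that binds YAP (1.51-fold, adjusted p = 0.0010), and MAP4K4, a kinase that can activate LATS kinases (1.38-fold, adjusted p = 0.0026). The falls were STK3, which encodes MST2 (log2 -0.36), the cadherin FAT4 (-0.36) and the YAP-binding scaffold AMOTL2 (-0.24). Without array 1 of the ESR1 group 12 were higher and 3 lower. Of the 8 TEAD factors and their VGLL competitors, VGLL3 was 2.52-fold lower and TEAD4 1.29-fold lower, while VGLL4 was 1.34-fold higher and TEAD3 1.18-fold higher. TEAD3 lost its call without array 3 of the ESR1 group, and TEAD3 and MAP4K4 were not called in a fit of these 6 arrays alone. TEAD1, at a log2 difference of 0.30, was not called.

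Textbook YAP/TAZ targets did not move as a block. Of 27 measured, 8 were higher and 13 lower with both cDNAs, and their median log2 difference was -0.20, against -0.0043 over all genes tested. CCN1, a secreted matricellular protein and among the most used YAP/TAZ readouts, had 7.74, 7.66 and 7.72 with both cDNAs, against 8.67, 8.76 and 8.96 with ESR1 cDNA, 2.13-fold lower (adjusted p = 1.3e-07). THBS1, the adhesive glycoprotein thrombospondin, had 10.86, 11.10 and 11.00 with both cDNAs, against 12.28, 12.29 and 12.12 with ESR1 cDNA, 2.38-fold lower. EDN1, the peptide endothelin, was 2.26-fold lower, and CCN2 fell by 0.91 on the log2 scale. ANKRD1 was called lower as well, with a mean of 4.86 with both cDNAs that lay under the dim level and 5.79 with ESR1 cDNA. The rises were led by TGFB2, a ligand of the TGF-beta receptors, which had 7.14, 7.00 and 7.39 with both cDNAs, against 5.83, 5.76 and 5.82 with ESR1 cDNA, 2.59-fold higher. AJUBA (log2 0.65), which restrains LATS kinases, the receptor kinase AXL (0.46) and MYOF (0.39) also rose, MYOF with overlapping arrays (adjusted p = 0.043). CCN1, CCN2 and ANKRD1, the best-known targets, were thus lower in the arrays in which WWTR1 was higher.

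CCN1 averaged 7.71 ± 0.04 with both cDNAs, 8.80 ± 0.15 with ESR1 cDNA, 8.72 ± 0.13 with YAP/TAZ cDNA and 7.64 ± 0.18 with control cDNA (SD, n = 3 each). Either cDNA delivered without the other thus went with a higher level than control cDNA, and the pair of them with a level near control cDNA. The YAP/TAZ change was 1.09 without ESR1 cDNA, and the difference between its changes with and without ESR1 cDNA was -2.17 ± 0.12 (adjusted p = 3.1e-09).

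Promoter letters were examined for the TEAD binding motif GGAATG on both strands, in RefSeq windows on GRCh38.p14 around each gene start. It was found in 8 of the 19 targets with a promoter in the table (42.1%), against 11.6% of 14228 promoters. The promoters of the largest fall and the largest rise that hold it are shown, THBS1 at chr15:39580829-39581128 and TGFB2 at chr1:218345086-218345385, both on the plus strand and 5′ to 3′, with the motif (or its reverse complement) in capitals.
THBS1: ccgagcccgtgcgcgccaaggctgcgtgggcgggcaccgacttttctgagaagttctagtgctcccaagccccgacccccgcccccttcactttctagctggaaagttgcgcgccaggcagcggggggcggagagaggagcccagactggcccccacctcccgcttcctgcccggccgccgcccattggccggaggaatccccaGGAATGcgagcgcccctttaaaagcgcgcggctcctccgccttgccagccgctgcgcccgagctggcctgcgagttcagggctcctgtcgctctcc
TGFB2: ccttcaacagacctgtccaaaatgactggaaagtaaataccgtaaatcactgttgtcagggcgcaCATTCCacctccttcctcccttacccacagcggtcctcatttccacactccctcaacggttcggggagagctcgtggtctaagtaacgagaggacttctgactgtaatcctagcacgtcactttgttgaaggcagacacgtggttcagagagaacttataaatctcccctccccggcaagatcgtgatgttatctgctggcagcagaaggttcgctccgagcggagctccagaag
Each window holds the motif 1 time, so the gene that fell and the gene that rose share these letters. A match is a description of letters and not of binding.

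Of 23 measured estrogen response genes 9 were higher and 1 lower, with a median log2 difference of 0.07. IGFBP4, a secreted binding protein of insulin-like growth factors, had 8.44, 8.60 and 8.64 with both cDNAs, against 6.91, 7.20 and 6.80 with ESR1 cDNA, 3.00-fold higher (adjusted p = 2.1e-07). CELSR2, a cadherin of planar polarity, was 2.01-fold higher, CTSD, the lysosomal protease cathepsin D, 1.91-fold, and SERPINA1, the inhibitor of neutrophil elastase, 1.87-fold. NRIP1, a corepressor of the receptor, rose by 0.80 on the log2 scale. The genes most used as readouts of the receptor were not called: GREB1 differed by 0.08, TFF1 by 0.02 and PGR by -0.02. GREB1 and PGR lay under the dim level in both groups. RERG was the fall, at -0.22 with overlapping arrays, and 0 genes of the list were lower without array 1 of the ESR1 group, without the first array of both groups, or with centred arrays. The motif GGTCA, one arm of an estrogen response element, was in 8 of 16 promoters of the list (50.0%) and in 35.2% of all promoters.

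Interferon genes were mostly higher with both cDNAs, by small amounts. Of 35 interferon-induced effectors 22 were higher and 0 lower, with a median log2 difference of 0.27, and of 26 RNA sensors and interferon signalling genes 16 were higher and 0 lower, with a median of 0.25. IFIT2, whose protein binds RNA and restrains translation, had 10.13, 10.08 and 10.00 with both cDNAs, against 8.13, 7.75 and 7.87 with ESR1 cDNA. RSAD2, an antiviral enzyme also called viperin, had 10.56, 10.20 and 10.27 with both cDNAs, against 8.81, 8.87 and 9.06 with ESR1 cDNA, 2.69-fold higher (adjusted p = 1.0e-08). HERC5, the ligase that attaches ISG15, was 2.19-fold higher and OASL, a relative of the oligoadenylate synthetases, 1.96-fold higher. IRF1, a transcription factor of the response, was 2.24-fold higher, the kinase IKBKE 1.93-fold, JAK2 1.56-fold and IRF9, the DNA-binding subunit of the ISGF3 complex, 1.54-fold.

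IFIT1 and OAS2 also had differences above the list median. IFIT1 had 11.37, 11.10 and 11.08 with both cDNAs, against 10.42, 10.78 and 10.84 with ESR1 cDNA, and was not called (0.50 ± 0.19, adjusted p = 0.066), although the groups did not overlap. OAS2 had 11.15, 11.36 and 11.29 with both cDNAs, against 11.09, 10.73 and 10.77 with ESR1 cDNA, and its call (0.40 ± 0.12, adjusted p = 0.014) was lost when array 2 or 3 of the ESR1 group, or array 2 with both cDNAs, was left out. MX1, which was near the dim level in both groups, differed by 0.05, IFI44L by 0.04 and ISG15 by -0.14, and none was called.

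The motif GAAANNGAA, the core shared by binding sites of interferon regulatory factors and ISGF3, was searched on both strands of the same promoter windows. It was in 22 of 28 promoters of the effectors (78.6%), in 5 of 21 of the sensors and signalling genes (23.8%) and in 6.83% of all 14228. IFIT2, the largest rise of the effectors, and OASL had no promoter among those searched. The promoters of RSAD2 (chr2:6865635-6865934) and HERC5 (chr4:88456869-88457168), the largest rises among the searched effectors that hold it, are shown on the plus strand. The motif or its reverse complement is in capitals.
RSAD2: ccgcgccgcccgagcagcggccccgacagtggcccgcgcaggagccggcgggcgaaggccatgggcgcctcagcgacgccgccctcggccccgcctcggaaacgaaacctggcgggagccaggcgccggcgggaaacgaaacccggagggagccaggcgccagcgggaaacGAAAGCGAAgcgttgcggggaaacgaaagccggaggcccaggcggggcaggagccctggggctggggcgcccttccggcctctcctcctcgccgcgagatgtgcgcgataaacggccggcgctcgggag
HERC5: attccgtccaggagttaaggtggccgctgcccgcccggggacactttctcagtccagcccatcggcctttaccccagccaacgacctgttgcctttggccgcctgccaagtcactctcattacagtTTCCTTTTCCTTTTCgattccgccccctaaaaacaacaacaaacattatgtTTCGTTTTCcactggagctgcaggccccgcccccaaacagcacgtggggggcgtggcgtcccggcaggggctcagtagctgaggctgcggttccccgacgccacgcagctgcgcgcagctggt
RSAD2 holds 1 match and HERC5 holds 3, of which the first pair overlap. Of the 16 called effectors with a listed promoter 11 held a match, a smaller share than the 22 of all 28. The motif was thus not more frequent among the effectors called higher.

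Of 13 antigen presentation genes 4 were higher and 0 lower: TAPBP, the chaperone tapasin (1.47-fold), the trimming peptidase ERAP1 (1.34-fold), the immunoproteasome subunit PSMB9 (1.22-fold) and the peptide transporter TAP1 (1.22-fold). Without array 1 of the ESR1 group 4 were higher and 4 lower. Chemokine, cytokine and NF-kB genes split, with 13 of 33 higher (39.4%) and 6 lower (18.2%). LCN2, an iron-withholding secreted protein, had 10.03, 10.03 and 10.06 with both cDNAs, against 8.20, 8.04 and 8.08 with ESR1 cDNA, 3.82-fold higher. TNFAIP2 was 2.72-fold and CXCL10, a ligand of CXCR3, 2.40-fold higher, and CCL5 (log2 1.21) and IL6 (1.15) rose as well. CCL20, the acute-phase genes SAA1 (-1.12) and SAA2 (-0.77), and TNFAIP3 (-0.45), which ends NF-kB signalling, fell.

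Complement and protease inhibitor genes moved far in both directions, with 6 of 13 higher and 4 lower. The complement proteases C1S (2.46-fold) and C1R (log2 1.21), and factor B (CFB, 1.27), rose. SERPINB3 was 3.37-fold and SERPINB4 2.84-fold higher; these neighbours are near-identical in sequence, so their probe sets may read each other's transcript. PI3, the elastase inhibitor elafin, had 8.24, 8.36 and 8.26 with both cDNAs, against 10.60, 10.09 and 10.20 with ESR1 cDNA, 4.03-fold lower. SERPINA3 fell by 1.16 on the log2 scale. TNFSF10, the death ligand TRAIL, had 11.05, 10.64 and 10.58 with both cDNAs, against 8.71, 9.26 and 9.62 with ESR1 cDNA, 2.95-fold higher (adjusted p = 2.7e-05), while BCL2L1, which encodes the survival protein BCL-XL, was 1.59-fold lower. The TRAIL receptor genes TNFRSF10A (0.12) and TNFRSF10B (0.11) were not called, and 3 of the 15 genes of that list were higher (20.0%) and 2 lower (13.3%), near the 16.2% and 12.9% of all genes. FAS, 1.31-fold lower, overlapped between groups and lost its call in 4 of the fits that left out an array and in the fit of 6 arrays.

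Cholesterol and fatty acid synthesis rose almost throughout. Of 23 measured genes 20 were higher and 0 lower, and the median log2 difference was 0.65. INSIG1, which holds the sterol sensor in the endoplasmic reticulum and is itself a target of SREBP, had 9.74, 9.75 and 9.84 with both cDNAs, against 8.21, 8.14 and 8.14 with ESR1 cDNA, 3.06-fold higher (adjusted p = 3.8e-13). HMGCS1, the synthase at the start of the mevalonate path, had 10.94, 10.91 and 11.02 with both cDNAs, against 9.60, 9.34 and 9.38 with ESR1 cDNA, 2.85-fold higher. The desaturases SCD and FADS2 were 2.57-fold and 2.48-fold higher, mevalonate kinase (MVK) rose by 1.13, fatty acid synthase (FASN) by 0.93 and the regulators SREBF1 and SREBF2 by 0.85 and 0.69. SC5D (-0.11), PMVK (0.0026) and ELOVL6 (0.12) were not called.

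Lineage markers did not follow a clean split. Of 17 basal and myoepithelial genes 8 were lower (47.1%, against 12.9% of all genes) and 2 higher (11.8%, against 16.2%). In bulk samples fewer cells of a kind and less RNA per cell cannot be told apart, here and for the cell division genes. TAGLN, an actin-binding protein of contractile cells, was 3.42-fold lower. KRT14 had 8.20, 8.05 and 8.20 with both cDNAs, against 9.99, 9.55 and 9.41 with ESR1 cDNA, 2.83-fold lower (adjusted p = 5.1e-07). SNAI2, the transcription factor SLUG of basal progenitors, was 2.51-fold lower. ACTA2, smooth muscle actin, went the other way, 1.84-fold higher. Of 24 luminal genes 13 were higher (54.2%) and 3 lower (12.5%, the share of the background). The 13 include KRT15, which basal and progenitor cells also express. ELF3, an epithelial ETS factor, had 8.15, 8.48 and 8.55 with both cDNAs, against 6.40, 6.67 and 6.62 with ESR1 cDNA, 3.55-fold higher. ALDH1A3 was 1.68-fold higher, and KRT8 (log2 0.70), FOXA1 (0.60), EPCAM (0.55) and GATA3 (0.27) rose, GATA3 with overlapping arrays. CD24, which the probe set may read together with near-identical copies elsewhere in the genome, was 2.54-fold lower. Without the first array of both groups 5 basal genes were lower and 3 higher.

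Of 29 mesenchymal and matrix genes 5 were higher (17.2%, against 16.2% of all genes) and 7 lower (24.1%, against 12.9%), so the share higher was that of the background. MMP2, a gelatinase whose mean with ESR1 cDNA was under the dim level, was 2.48-fold and SPARC, a collagen-binding glycoprotein, 2.12-fold higher, whereas FN1 was lower, as were LOX, the collagen cross-linking oxidase (1.35-fold), and VIM (log2 -0.43). Of the fibroblast genes COL1A1, COL1A2, COL3A1, DCN, LUM and POSTN none was called. DCN only just missed the threshold (log2 -0.52, adjusted p = 0.05008), with no overlap of arrays and both means under the dim level. Among 30 epidermal differentiation genes 7 were lower (23.3%) and 3 higher (10.0%). TGM1, the cross-linking enzyme of the cornified envelope, was 2.41-fold lower, GRHL3, a transcription factor of the barrier, 2.29-fold lower, and the envelope protein SPRR1B 1.85-fold lower. SPRR2A was called lower with a mean of 4.93 with both cDNAs, and FLG higher with a mean of 5.07 with ESR1 cDNA, both under the dim level.

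Cell division genes were lower with both cDNAs. Of 28 mitosis genes 21 were lower and 0 higher, with a median log2 difference of -0.41, and of 28 DNA replication genes 16 were lower and 0 higher, with a median of -0.24. CCNB1, the mitotic cyclin B, had 9.74, 9.52 and 9.54 with both cDNAs, against 10.35, 10.50 and 10.46 with ESR1 cDNA, 1.78-fold lower (adjusted p = 1.2e-07). HMMR, a spindle protein, was 1.95-fold lower, and CENPE and TTK, of the kinetochore and its checkpoint, 1.61-fold and 1.57-fold. POLE2, a subunit of DNA polymerase epsilon, was 2.37-fold lower, and GINS2, GINS1 and GINS3, of the replicative helicase, 1.90-fold, 1.68-fold and 1.58-fold. The MCM2 to MCM7 subunits were not called, from -0.14 to 0.04 on the log2 scale. Without the first array of both groups 14 replication genes were lower and 5 higher.

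Of 20 p53 targets and CDK inhibitors 10 were higher (50.0%) and 2 lower (10.0%). GDF15, a secreted stress cytokine, had 12.27, 12.32 and 12.29 with both cDNAs, against 10.26, 10.17 and 10.19 with ESR1 cDNA, 4.24-fold higher (adjusted p = 3.6e-15). TP53INP1 (1.62-fold), SESN2 (1.60-fold), SUSD6 (1.59-fold) and CDKN1A, which encodes the CDK inhibitor p21 (log2 0.65), rose, while TP53I3 fell by 0.61. Of 24 amino acid and unfolded protein stress genes 13 were higher (54.2%) and 3 lower (12.5%). PHGDH, the first enzyme of serine synthesis, was 2.16-fold higher, TRIB3 and DDIT3, of the integrated stress response, 1.83-fold each, and the cystine transporter SLC7A11 1.37-fold. The endoplasmic reticulum chaperone HSPA5 differed by 0.04 and was not called.

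Among 21 hypoxia and glycolysis genes 7 were higher and 5 lower: ALDOC, an aldolase, was 3.09-fold and SLC2A1, the glucose carrier GLUT1, 1.94-fold higher, whereas ANGPTL4 was lower, as was ADM (1.53-fold), the peptide adrenomedullin. EGF ligand and ERK feedback genes were higher in 13 of 23 (56.5%) and lower in 4 (17.4%). HBEGF, a ligand of the EGF receptor, had 11.13, 11.13 and 11.17 with both cDNAs, against 9.55, 9.64 and 9.68 with ESR1 cDNA, 2.87-fold higher. The nuclear protein PHLDA1 (1.96-fold) and the ERK feedback genes DUSP6 (log2 0.85), SPRED1 (0.64) and SPRY1 (0.54) rose. EPGN, another ligand of the receptor, was 3.14-fold lower. DUSP1, a phosphatase of p38 and JNK and a glucocorticoid target, had 10.18, 10.24 and 10.17 with both cDNAs, against 11.99, 11.88 and 11.95 with ESR1 cDNA, 3.36-fold lower.

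Immediate early genes split, with 7 of 18 higher (38.9%) and 3 lower (16.7%). KLF6 was 2.35-fold and JUN 1.87-fold lower, while KLF4 was 1.68-fold and FOS 1.48-fold higher. The AP-1 motif TGANTCA was in 1 of 14 promoters of these genes (7.14%) and in 5.58% of all promoters. In TGF-beta and BMP signalling 6 of 24 were higher and 8 lower. Besides ID2 and TGFB2, INHBA, the activin subunit, was 3.17-fold lower, ID3 was 1.94-fold lower, and ID1 fell by 0.34, so 3 of the 4 measured ID genes were called lower and ID4, at -0.07, was not called. SMAD3 rose by 0.86 on the log2 scale.

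Ion transport and steroid response lists held several of the largest changes. Of 14 sodium channel and water transport genes 3 were higher and 3 lower (21.4% each, against 16.2% and 12.9% of all genes). With SCNN1G, the beta subunit SCNN1B was 1.68-fold lower and SGK1, the kinase that keeps the channel at the membrane, 2.39-fold lower, whereas the alpha subunit SCNN1A differed by -0.02 and was not called. Of 14 vitamin D and glucocorticoid response genes 7 were lower and 3 higher. ZBTB16, a glucocorticoid target, was 2.67-fold lower, PER1 fell by 1.11 and TSC22D3, also called GILZ, fell by 0.75. The receptors themselves, NR3C1 (0.69) and VDR (0.50), rose together with CYP24A1.

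Ribosomal protein genes were lower in 9 of 20 and higher in 0, by little: RPL10A was 1.36-fold, RPL23 1.26-fold, RPS20 1.23-fold and RPL7A 1.22-fold lower. Centring each array on its median left 5 lower, all 4 named lost their call in the fit of 6 arrays and in some fits that left out an array, and processed pseudogenes may share their probes. Of 21 leukocyte and endothelial genes 3 were higher (14.3%, near the 16.2% of all genes) and 0 lower. The 3 were CD14 (2.87-fold), CD68 (1.97-fold) and PECAM1 (1.35-fold). The mean over the list was 5.67 to 5.69 per array with both cDNAs and 5.54 to 5.56 with ESR1 cDNA, and 12 of the 21 lay under the dim level in each group. The part of other cell types in the results was not tested.

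Some counts given above moved when the first array of both groups was left out. Then 21 interferon effectors were higher and 1 lower, 17 sensors and signalling genes were higher and 2 lower, 18 lipid synthesis genes were higher and 1 lower, and 1 mitosis gene was higher and 18 lower. Of the EGF and ERK list 14 were higher and 2 lower, and of the Hippo components 13 were higher and 2 lower.

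**Figure D3:**
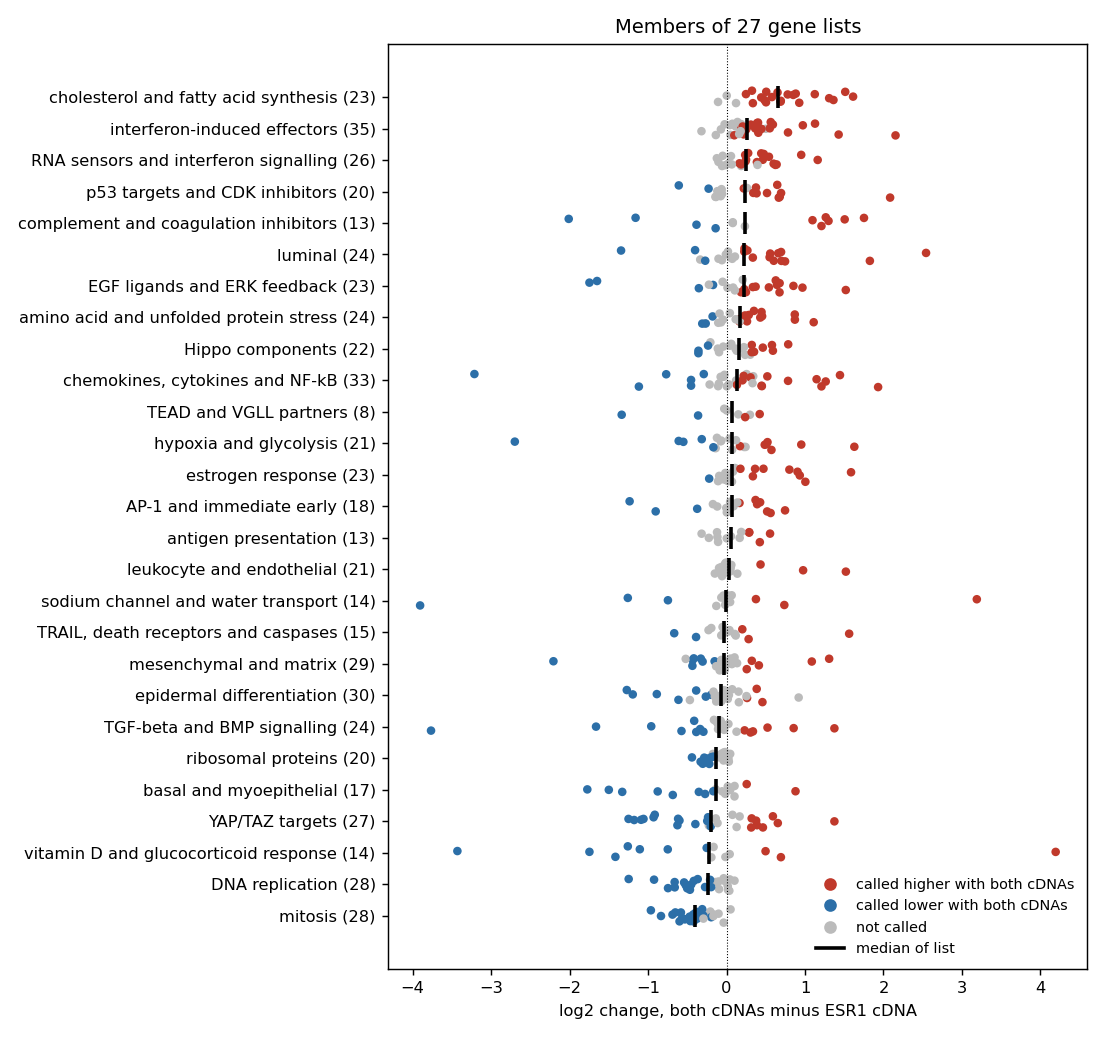
Log2 difference (both cDNAs minus ESR1 cDNA) of each measured member of 27 gene lists, with the number measured in parentheses. Red points were called higher and blue points lower with both cDNAs, grey points were not called, and black bars are list medians, which run from 0.65 for cholesterol and fatty acid synthesis to -0.41 for mitosis.

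The change differed from that of YAP/TAZ cDNA given without ESR1 cDNA. That change, shNT cells with YAP/TAZ cDNA minus shNT cells with control cDNA, shares no array with the one above and called 1289 genes (7.00%), 582 higher (3.16%) and 707 lower (3.84%). The difference between the changes with and without ESR1 cDNA was tested in the same limma fit and was called for 3512 genes (19.1%), 2098 positive (11.4%) and 1414 negative (7.68%). Without array 1 of the ESR1 group 5607 were called. The genes called in both numbered 786, which is 14.7% of the calls with ESR1 cDNA and 61.0% of the calls without it, and 476 of them had the same direction and 310 opposite directions. Across all genes the changes had a Pearson's r of 0.028, a description over genes, which are not independent replicates.

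Of the 12 largest rises 11 differed between the backgrounds, all more positive with ESR1 cDNA. The 12 rises and 12 falls were chosen for the size of the change with ESR1 cDNA, which is 1 term of the difference. A difference of the same sign was thus favoured in advance, and the counts among them are no test of the backgrounds. SLC6A14 rose by 4.27 with ESR1 cDNA and had 0.13 without it, a difference of 4.14. CYP24A1 had 0.08 without ESR1 cDNA (difference 4.11), and GPX2 and KRT15 fell by 0.62 and 0.65 without it (differences 3.71 and 3.20). AKR1B10, at -0.25, was not called without ESR1 cDNA (difference 3.24). IFIT2 was the exception: it rose by 2.15 with and 2.13 without ESR1 cDNA, and the difference of 0.03 was not called (adjusted p = 0.91). All 12 largest falls differed, and 7 of them were called higher with YAP/TAZ cDNA and no ESR1 cDNA. ID2 fell by 3.77 with ESR1 cDNA and rose by 1.32 without it (difference -5.09, adjusted p = 3.3e-09). CCL20 rose by 1.46, RGS2 by 1.20 and SLC26A2 by 0.80 without ESR1 cDNA (differences -4.67, -4.64 and -3.99), whereas SCNN1G, at 0.19, was not called there (difference -4.10).

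Interferon effectors and lipid synthesis genes differed between the backgrounds in opposite senses. Without ESR1 cDNA, YAP/TAZ cDNA went with 32 of 35 effectors higher and 0 lower, at a median log2 change of 1.40, and the difference between the backgrounds was negative for 27 and positive for 0. OAS2 averaged 11.26 with both cDNAs and 10.86 with ESR1 cDNA, and 10.36 with YAP/TAZ cDNA and 6.63 with control cDNA (difference of changes -3.32, adjusted p = 4.8e-10). The ESR1 arrays thus stood far above the control arrays for this gene. For cholesterol and fatty acid synthesis the difference was positive for 21 of 23 and negative for 0, and YAP/TAZ cDNA without ESR1 cDNA went with 7 lower and 0 higher. HMGCS1 averaged 10.95 with both cDNAs and 9.44 with ESR1 cDNA, and 9.48 with YAP/TAZ cDNA and 9.93 with control cDNA (difference of changes 1.97, adjusted p = 3.5e-10). Mitosis genes were lower in both backgrounds, 21 of 28 with and 19 of 28 without ESR1 cDNA, and the difference was called for 1 positive and 2 negative.

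**Figure D4:**
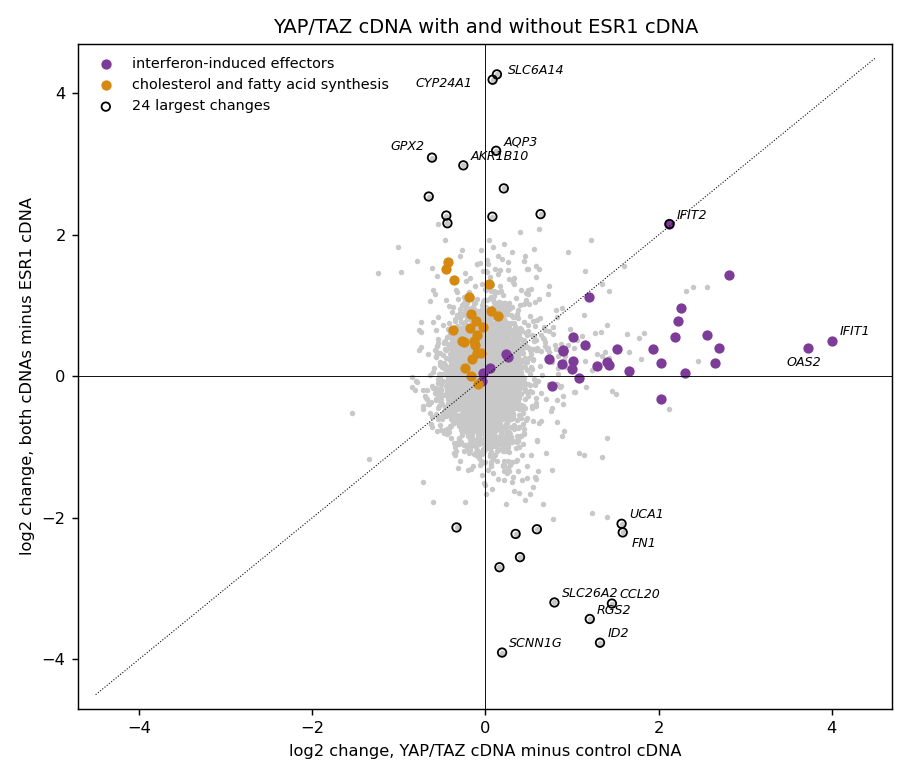
Log2 change with YAP/TAZ cDNA in the presence of ESR1 cDNA (vertical axis, both cDNAs minus ESR1 cDNA) against its absence (horizontal axis, YAP/TAZ cDNA minus control cDNA), 1 point per gene over 18404 genes, with the dotted line marking equal change. Interferon effectors (purple) spread along the horizontal axis, most lipid synthesis genes (orange) lie above 0 vertically, and the 24 largest changes (open circles) lie far from the dotted line except IFIT2. These 24 were chosen for their vertical distance from 0, which favours a place off that line.

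More of the large changes recurred in the LATS1 knockdown. The knockdown difference, shLATS1B minus shNT cells, both with control cDNA, called 4415 genes (24.0%) and again shares no array with the comparison. Genes called in both numbered 2669, which is 49.8% of the calls with both cDNAs and 60.5% of the knockdown calls, 2497 in the same direction and 172 in opposite directions. Across genes r was 0.624. Of the 262 genes that differed at least 2-fold between both cDNAs and ESR1 cDNA, 201 were called in the same direction and 7 in the opposite one by the knockdown, against 44 and 52 by YAP/TAZ cDNA without ESR1 cDNA. The mean with both cDNAs was nearer to the knockdown mean than to the ESR1 mean in 252 of the 262, and nearer to the YAP/TAZ cDNA mean than to the ESR1 mean in 171. Since the 262 were chosen for their distance from the ESR1 mean, both counts are tilted away from it. CYP24A1 averaged 9.13 ± 0.07 with both cDNAs and 9.13 ± 0.25 in the knockdown, and SCNN1G averaged 5.29 ± 0.04 and 5.30 ± 0.04 (SD, n = 3 each). LATS1 itself, as given above, was higher with both cDNAs and lower in the knockdown.

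The difference between these changes was called for 1738 genes (9.44%), and for 4203 without array 1 of the ESR1 group. The most positive differences were AKR1B10 (3.03), TSPAN7, a tetraspanin (2.94), GPX2 (2.91), the chloride channel family member CLIC2 (2.77) and CYP4F11, a fatty acid hydroxylase (2.28). CLIC2 was not called between both cDNAs and ESR1 cDNA (-0.16 ± 0.11) and was -2.92 in the knockdown difference. Its mean in shLATS1B, 4.86, lay under the dim level, so -2.92 and 2.77 rest on a lower level that is not well measured. The most negative differences were the interferon genes IFIT1 (-3.99), OAS2 (-3.26) and IFIT3 (-2.65), ANKRD2, a muscle ankyrin repeat protein (-2.58), and GRAMD2A, a protein of membrane contact sites (-2.53). ANKRD2 had 7.04, 7.07 and 7.05 with both cDNAs, against 9.34, 8.73 and 9.03 with ESR1 cDNA, 3.95-fold lower, and was higher in the knockdown (log2 0.60).

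**Figure D5:**
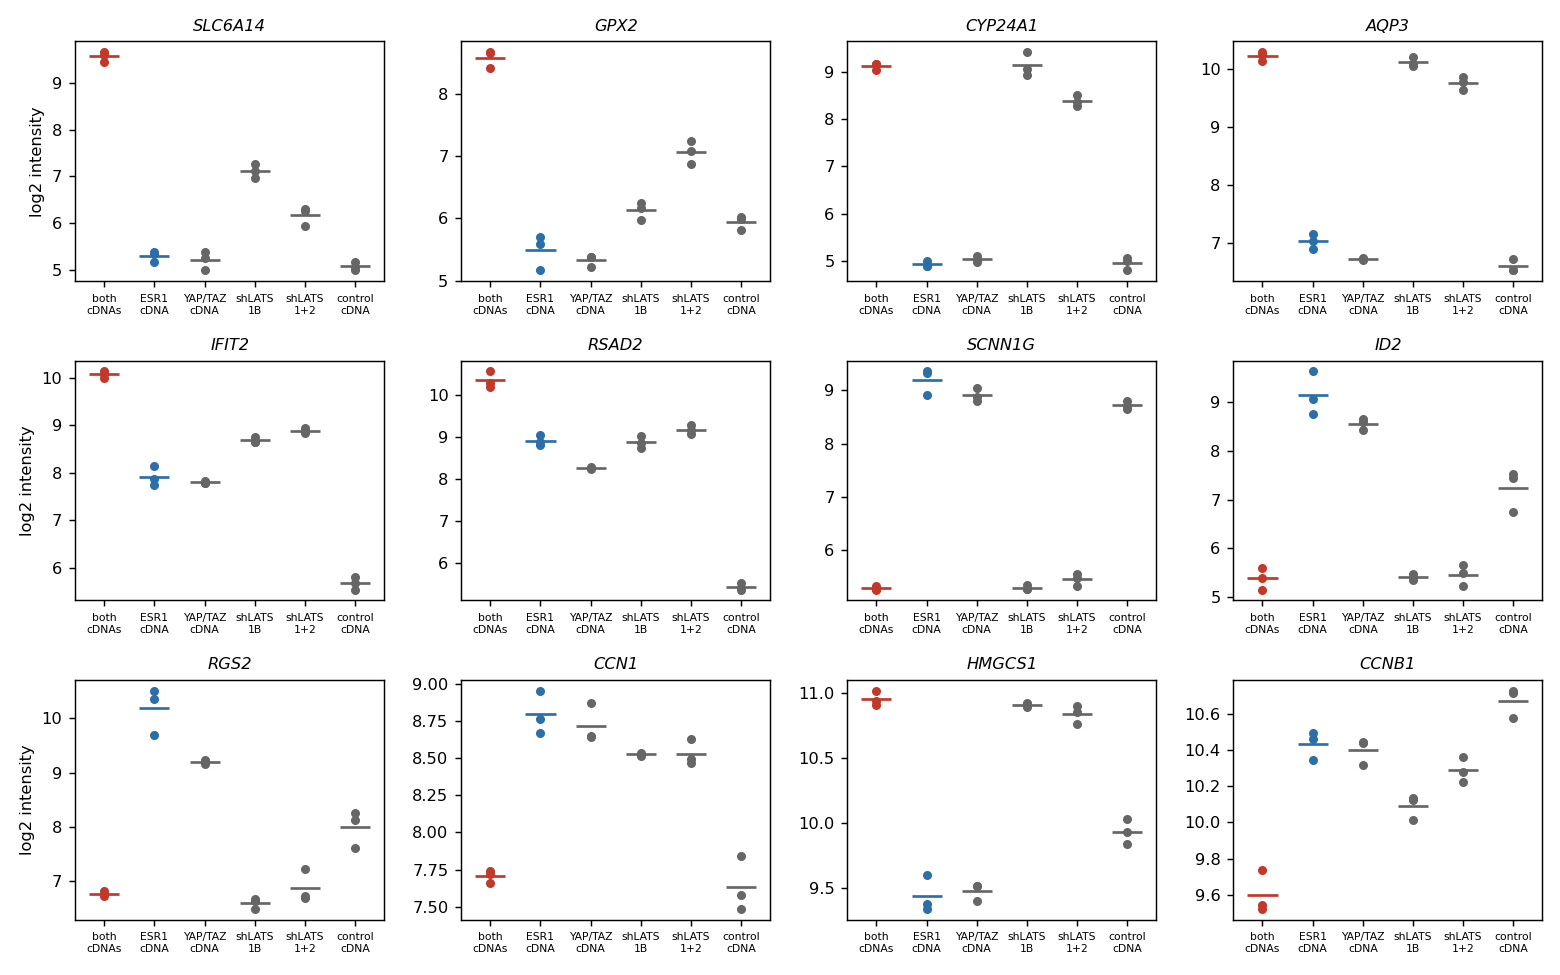
Log2 intensity of 12 genes in all 18 arrays, in 6 groups of 3 (points are arrays, lines are group means, vertical axes differ between panels). SCNN1G, ID2, CYP24A1 and AQP3 with both cDNAs stand near the levels of the knockdown groups, whereas CCN1 with both cDNAs stands near control cDNA and SLC6A14 and GPX2 stand above every other group.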

How the data were processed

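Affymetrix whole-transcript arrays (18, in 6 groups of 3) were hybridised with material made from 100 ng of total RNA, per the labels' protocols. The deposited table holds log2 values for 32321 probe sets, from 3.561 to 13.75. The submitters' processing notes name affy, without a version. No source used here states the background correction or normalization. Medians of the arrays ranged from 5.494 to 5.619.

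Of the probe sets, 19158 had 1 symbol in the platform annotation, 1388 several and 11775 none, and 19128 matched RefSeq (GRCh38.p14) by gene identifier. Each of 18404 genes was read from its brightest probe set by mean over all arrays, a choice that mattered for 637 genes. No brightness filter was applied. Listed genes without such a probe set were not analysed here.

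One linear model with a mean per group was fitted with limma 3.58.1 in R 4.3.3 (12 residual degrees of freedom, 3.94 prior), tested on simulated data first. Folds are the absolute log2 difference taken out of the log. Differences between changes are contrasts of the same fit.

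The text names the 5 targeted or transfected genes, the 12 strongest rises and 12 strongest falls that were called with no overlap of arrays, up to 4 called members of each list with the largest change, and the 5 largest differences between changes of each sign; other list members are given as values chosen after they were seen. The comparison, the gene lists and the motifs were chosen with earlier results of these data known.

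Alternatives were centring, quantile normalization, brighter genes, all probe sets, trend and robust moderation, array weights, only the arrays compared, at least 1.5-fold, the replicate number as a block, and leaving out each array. Leaving out the first array of both groups together was added after seeing the data. Same-numbered arrays of the groups did not deviate together (r of deviations across genes -0.694, -0.306 and -0.363), so they were not treated as pairs.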

Additional observations from a re-analysis of the deposited data

Results flagged for a closer look

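The YAP/TAZ cDNA change with ESR1 cDNA differed in size or direction from the change without ESR1 cDNA, by the test of the difference, for 3512 genes. From the LATS1 knockdown change it differed, in size or direction, for 1738 genes. The values below are the change with ESR1 cDNA minus the change without it, on the log2 scale, and each passed that test. The largest rises and falls were chosen by their change with ESR1 cDNA, so their differences are tilted toward its sign.

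Among the targeted or transfected genes the difference was 0.64 for LATS1, 0.37 for YAP1, 0.92 for WWTR1 and -0.65 for ESR1. WWTR1 and YAP1 were called higher with both cDNAs than with ESR1 cDNA, while in the cells without ESR1 cDNA neither was called. YAP1 averaged 10.88 with both cDNAs, 10.56 with ESR1 cDNA and 10.84 with control cDNA, so with both it stood near control cDNA. WWTR1 averaged 9.99 with both cDNAs and 10.01 in shLATS1B, which received no YAP/TAZ cDNA.

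Among the largest rises it was 4.14 for SLC6A14, 4.11 for CYP24A1, 3.71 for GPX2, 3.24 for AKR1B10, 3.20 for KRT15, 3.07 for AQP3, 2.73 for DMBT1, 2.60 for SMOC1, 2.45 for FBXO32, 2.18 for CYP26B1 and 1.66 for OLR1. Among the largest falls it was -5.09 for ID2, -4.67 for CCL20, -4.64 for RGS2, -4.10 for SCNN1G, -3.99 for SLC26A2, -3.79 for FN1, -3.66 for UCA1, -2.96 for PNLIPRP3, -2.86 for ANGPTL4, -2.76 for CCBE1, -2.58 for VARS2 and -1.80 for FLRT3. For ID2, CCL20, RGS2, SLC26A2, FN1, CCBE1 and UCA1 the change without ESR1 cDNA was called higher, and for GPX2, KRT15 and SMOC1 it was called lower, so the directions were opposite in these genes. The ESR1 values of CYP24A1 lay under the dim level, as did array 2 of the ESR1 group for SLC6A14 and GPX2. Array 3 with both cDNAs also lay under it for ID2, and SCNN1G with both cDNAs lay just above it.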

How the results depend on the processing

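None of the 130 named genes reversed under the alternatives run for them; brighter genes only covered 128, and all probe sets was run for counts and not gene by gene. For both cDNAs against ESR1 cDNA, fitting the 6 arrays alone called 3273 genes in place of 5359, and requiring at least 1.5-fold left 1125. All probe sets gave 6483 calls, 3184 higher and 3299 lower, against 2977 and 2382 with 1 probe set per gene. Leaving out 1 array at a time gave 4027 to 6798 calls. For the difference from YAP/TAZ cDNA without ESR1 cDNA, array weights gave 5868 calls in place of 3512, at least 1.5-fold left 1277, leaving out 1 array gave 2593 to 5607, and leaving out the first array of both groups gave 6161; centring turned 2098 positive and 1414 negative into 2659 and 999. For the difference from LATS1 knockdown, array weights gave 4489 calls in place of 1738, at least 1.5-fold left 590, leaving out 1 array gave 1221 to 4203, and leaving out the first array of both groups gave 4921; centring gave 1285 positive and 438 negative, against 1040 and 698. The cause of these shifts was not tested. Calls lost in the 6-array fit were YAP1, MAP4K4, TEAD3, FAS, RPL10A, RPL23, RPS20 and RPL7A. With the replicate number as a block the counts were 5141, 3311 and 1567, and no named gene changed its call. The labels do not say whether same-numbered arrays share more than a number. Centring moved the median of all genes to 0.06, against -0.0043. Depth in the sense of counts does not apply to arrays, where the number of arrays and values under the dim level of 5.21 limit what can be seen.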

Other observations

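Small nucleolar RNA genes, which guide chemical modification of ribosomal RNA and mostly lie in introns of host genes, were mostly lower or not called with both cDNAs. Of 175 measured, 83 were lower and 1 higher, against 12.9% and 16.2% of all genes, with a median log2 difference of -0.27. The group was chosen after its values were seen. SNORD78 averaged 8.88 ± 0.25 with both cDNAs and 10.34 ± 0.63 with ESR1 cDNA (SD, n = 3 each), and SNORA74A, SNORD44 and SNORD30 were 2.77-fold, 2.70-fold and 2.55-fold lower. SNORD33 was the gene that was higher (1.19-fold). Between 51 and 101 were lower when 1 array was left out, 74 with centred arrays and 49 in the fit of 6 arrays. YAP/TAZ cDNA without ESR1 cDNA called 0 of the 175 against control cDNA by the limma test over all genes, and the difference between the changes was negative for 44 and positive for 0.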
